A study of Gallus gallus with 106 samples.

Results

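The comparison was between primary satellite cells after 12 h in differentiation medium at 20% O2 (normoxia) and the same kind of cells at 0 h, harvested just before the medium was changed. The members were chosen by the sample labels, with earlier results of these data known. They were 11 of the 53 biological libraries of the series, 6 at 12 h and 5 at 0 h, each the sum of 2 technical replicates. The cells were wild-type primary cultures from the breast muscle (Pectoralis major) of broiler chickens. At 0 h they were in growth medium, which was Ham's F10 with fetal bovine serum, horse serum, chicken embryo extract, basic fibroblast growth factor (bFGF) and penicillin-streptomycin. By 12 h they had spent that time in DMEM/F12 with horse serum, a larger share of chicken embryo extract and the same antibiotics, so that fetal bovine serum and added bFGF were gone. Hours of culture and the change of medium therefore cannot be told apart. No culture kept in growth medium for the same 12 h was analysed here. Whether each library came from a bird of its own is not stated in the labels, and the p-values cover no more than the spread between these libraries, which may be technical.

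Satellite cells are the stem cells of skeletal muscle. In culture, withdrawal of serum and growth factors lets them leave the cell cycle, and myogenic regulatory factors together with MEF2 factors then switch on the genes of the contractile apparatus before the cells fuse into myotubes. Myostatin, Notch and FGF signalling are known to hold myoblasts back from this step.

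The assay was targeted RNA-seq: cDNA was amplified with primer pairs for chosen transcripts, placed so that the products cross exon boundaries, and sequenced. The panel held 569 genes, and 453 of them passed the filter on low counts. Total counts ran from 296563 to 1448544 per library at 12 h and from 311436 to 1268843 at 0 h. Levels are given as CPM (counts scaled to a common total over the panel, with TMM factors), so they are relative to the rest of the panel. They also carry the yield of each primer pair, and levels of different genes are not compared. In bulk RNA, fewer cells of a type and less RNA per cell cannot be told apart. No library was set apart by its label, but a score over 6 genes left a gap between 7.03 and 7.67. The score was the mean log2 CPM of MC5R, SSTR2, HRH2, THRSP, FBP2 and IRS1. These genes were picked because earlier results of these data showed them to move together within groups. At 12 h 4 of 6 libraries (replicates 1, 2, 3 and 6) lay above the gap, against 1 of 5 at 0 h (replicate 1).

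The 7 tested markers of satellite cells and myoblasts (DES, ITGA7, MYF5, MYOD1, MYOG, PAX3 and PAX7) were all present, and their summed level was 25587 to 30376 CPM at 12 h, against 29876 to 33622 CPM at 0 h. One of the 7, ITGA7, rose and 0 fell. The cultures also gave signal for markers of other cells. The summed level of 8 fibroblast markers was 26732 to 28223 CPM at 12 h and 26585 to 28324 CPM at 0 h, with 2 of the 8 higher at 12 h (DPT and TCF21). That of 7 adipocyte markers was 17097 to 21144 and 18110 to 20542 CPM at 12 h and 0 h, with 1 of 7 higher (CD36). That of 3 endothelial markers was 318 to 872 and 686 to 1463 CPM, with 1 of 3 lower (VWF). The 4 smooth muscle and pericyte markers summed to 12625 to 13837 CPM at 12 h and 10876 to 11884 CPM at 0 h, so that the groups did not overlap, and 2 of the 4 rose (CNN1 and PDGFRB). CNN1 (log2 2.18) changed more than PDGFRB (0.59), and ACTA2 and TAGLN did not pass. Such sums mix genes of unlike primer yield. Over all genes tested 10.8% rose, 7.28% fell, and the groups did not overlap in 15.2%. CD14, the one tested immune marker, stood at 11.9 to 236 CPM at 12 h and 9.29 to 41.5 CPM at 0 h. Whether other cells or the satellite cells themselves gave the signal of these markers was not tested, nor was the part of any other cells in the changes below.

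After 12 h, 82 of 453 genes had changed (18.1%), 49 higher (10.8%) and 33 lower (7.28%), by edgeR's quasi-likelihood test at a Benjamini-Hochberg adjusted p under 0.05 over all genes tested. By median and by the number past 2-fold the rises were the larger changes. The falls of PCYT2 (log2 -3.47) and WNT4 (-3.18) were still further from 0 than the highest rise, MYLK (2.97). The PCYT2 call was lost under several alternatives, and WNT4 had few counts (both below). Of the genes called, 34 were at least 2-fold higher and 15 at least 2-fold lower, 8 were at least 4-fold higher and 2 at least 4-fold lower, and the median log2 change was 1.30 among the rises and -0.95 among the falls. The 12 h and 0 h libraries did not overlap in 69 of the 453 genes (15.2%), among them 59 of the 82 genes called. In 74 of the 82 all 6 libraries at 12 h lay on one side of the 0 h mean. The falls depended more on scaling than the rises. The median log2 change of all genes was -0.06 with TMM scaling and 0.05 when libraries were scaled on 8 reference genes, and the second scaling gave 46 higher and 14 lower genes. With the libraries above the gap left out, which leaves 2 libraries at 12 h and 4 at 0 h, 52 genes were called, 40 higher and 12 lower, and 48 of them were among the 82. With so few libraries, a call could be lost without a smaller log2 change.

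**Figure D1:**
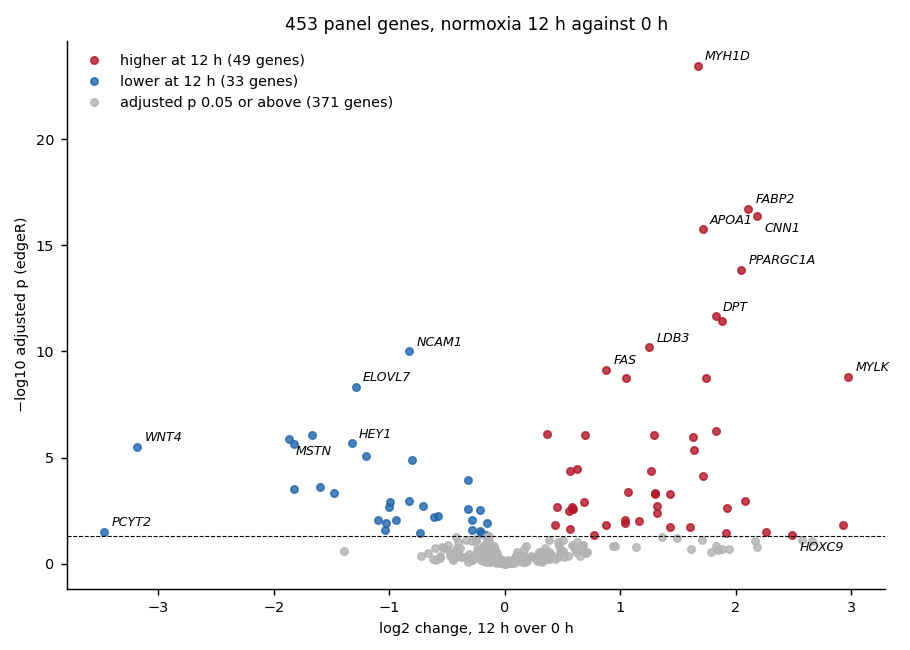
Each point is one of the 453 tested panel genes, with the log2 change of 12 h over 0 h on the horizontal axis and −log10 of the edgeR adjusted p on the vertical axis. The median log2 change is 1.30 among the 49 genes higher at 12 h and -0.95 among the 33 lower genes. PCYT2, a lower gene, lies furthest from 0, and MYH1D has the smallest p.

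Contractile and cytoskeletal genes were among the clearest changes. Of 13 tested genes of the sarcomere and muscle structure list 5 rose, 1 fell and 7 did not pass, with a median log2 change of -0.03 against -0.06 over all genes tested. Over all genes tested 10.8% rose and 7.28% fell. MYH1D, a fast myosin heavy chain (chromosome 18, 376311 to 398842 of galGal6, minus strand, 39 exons), stood at 3995 to 4354 CPM (median 4043, n = 6) at 12 h, against 1238, 1801, 1272, 1072 and 1101 CPM at 0 h. The lowest library at 12 h was well above the highest at 0 h. The change was 3.18-fold (log2 1.67, SE 0.08, edgeR adjusted p = 3.46e-24). Fast myosin heavy chain genes of the chicken resemble each other closely in sequence, so which of them gave the counts of a MYH1 name is uncertain. With that limit, and chosen after their values were seen, MYH1E averaged 1805 ± 264 CPM at 12 h and 878 ± 253 CPM at 0 h (log2 1.05, adjusted p = 1.83e-09), while MYH1B averaged 93.8 ± 8.91 CPM and 154 ± 30.9 CPM (log2 -0.71, adjusted p = 0.00202, 0.0516 with reference-gene scaling and 0.224 with the libraries above the gap left out).

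MYLK, the kinase that phosphorylates myosin regulatory light chains (chromosome 7, 27174449 to 27356383, minus strand, 33 exons), had the highest log2 change among the genes called. It stood at 269 to 458 CPM (median 379, n = 6) at 12 h, against 52.8, 87.0, 36.6, 21.2 and 49.6 CPM at 0 h (log2 2.97, SE 0.35, edgeR adjusted p = 1.54e-09). CNN1, the actin-binding protein calponin (chromosome 30, 392257 to 395386, plus strand, 7 exons), stood at 2385 to 2884 CPM (median 2740.1, n = 6) at 12 h, against 573, 889, 516, 421 and 596 CPM at 0 h (log2 2.18, SE 0.15, adjusted p = 4.27e-17). Neither gene overlapped between the groups. The Z-disc protein LDB3 stood at 1578 to 2211 CPM (median 1932, n = 6) at 12 h, against 1032, 915, 632, 646 and 801 CPM at 0 h (log2 1.25, SE 0.13, adjusted p = 6.5e-11), again without overlap. ACTG2, an actin of smooth muscle, was 197 ± 29.7 CPM at 12 h and 74.2 ± 34.8 CPM at 0 h (log2 1.43, adjusted p = 0.000541, chosen after its value was seen). CNN1 and MYLK are also smooth muscle genes. Of the other 3 smooth muscle and pericyte markers PDGFRB rose (log2 0.59, adjusted p = 0.00279), while TAGLN (-0.12, 0.326) and ACTA2 (-0.10, 0.415) did not pass. Among the other muscle genes, the muscle actin ACTA1 (log2 -0.03), the cardiac actin ACTC1 (0.50), desmin, DES (-0.06), the calcium buffer PVALB (-0.53) and troponin TNNT2 (-0.60) did not pass. The muscle protease CAPN3 rose (log2 1.16, adjusted p = 0.00939), but its groups overlapped and the call was lost without 0 h replicate 4 (adjusted p = 0.0512) or 12 h replicate 4 (0.0595).

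**Figure D2:**
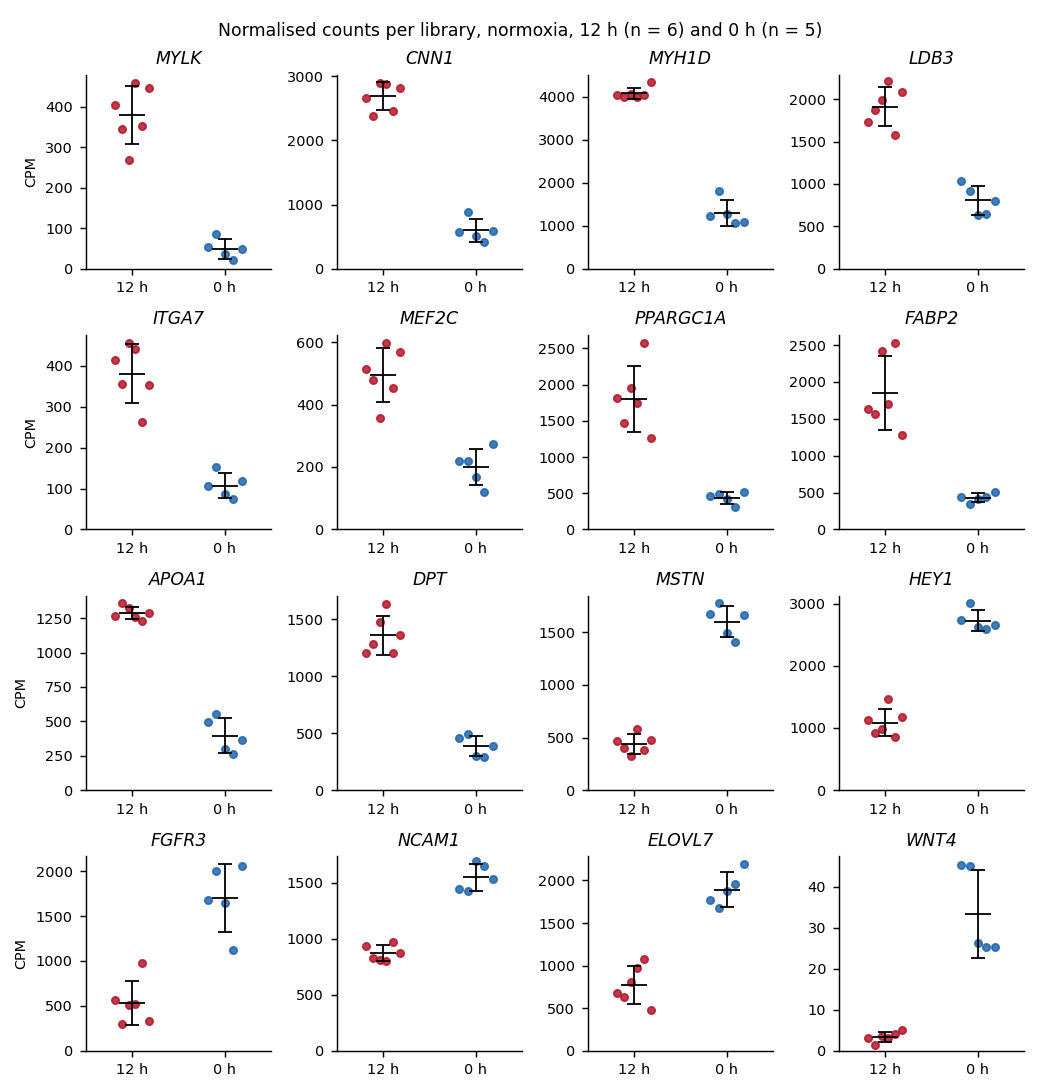
CPM of 16 genes in each library, with 12 h (red, n = 6) left of 0 h (blue, n = 5), one point per library, and the mean and SD in black. In each of the 16 panels the 12 h libraries do not overlap the 0 h libraries: 10 genes are higher at 12 h and 6 (MSTN, HEY1, FGFR3, NCAM1, ELOVL7 and WNT4) are lower. All genes shown are among those called, and the groups did not overlap in 69 of the 453 genes tested (15.2%).

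Of the MEF2 transcription factors, partners of the myogenic regulatory factors, MEF2A and MEF2C rose, while MEF2D did not pass (log2 -0.16, SE 0.41, edgeR adjusted p = 0.8). MEF2C stood at 356 to 598 CPM (median 496, n = 6) at 12 h, against 219, 219, 169.5, 119 and 274 CPM at 0 h (log2 1.30, SE 0.29, edgeR adjusted p = 0.000468), and MEF2A at 322 to 728 CPM (median 453, n = 6), against 251, 238, 160.0, 126 and 209.7 CPM (log2 1.30, SE 0.29, adjusted p = 0.00055). The MEF2C call was lost with technical replicate 2 alone (adjusted p = 0.0591). Of the 7 tested genes of the list of myogenic regulatory factors these 2 rose, 0 fell and 5 did not pass. Over all genes tested 10.8% rose and 7.28% fell. MYOD1, which commits cells to the muscle lineage, averaged 3753 ± 266 CPM at 12 h and 4236 ± 429 CPM at 0 h (log2 -0.18, SE 0.10, adjusted p = 0.245). MYOG, which drives terminal differentiation, averaged 4608 ± 323 CPM and 4682 ± 191 CPM (log2 -0.02, SE 0.10, adjusted p = 0.885). MYF5 (log2 -0.42, SE 0.21, adjusted p = 0.191) and MYF6 (-0.45, 0.66, 0.659) did not pass either. MYF5 passed when the 12 h and 0 h groups were fitted alone (log2 -0.39, adjusted p = 0.00338).

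Of the 5 tested satellite cell identity and surface genes 1 rose and 1 fell. ITGA7, the muscle integrin that binds laminin, stood at 262 to 456 CPM (median 384, n = 6) at 12 h, against 106, 151, 85.9, 75.6 and 118 CPM at 0 h (log2 1.83, SE 0.27, edgeR adjusted p = 5.73e-07). NCAM1, a cell adhesion molecule of myoblasts, stood at 798 to 971 CPM (median 853, n = 6) at 12 h, against 1446, 1424, 1689, 1652 and 1528 CPM at 0 h (log2 -0.83, SE 0.09, adjusted p = 9.86e-11). Neither gene overlapped between the groups. PAX7, which marks satellite cells, averaged 7891 ± 972 CPM and 9015 ± 591 CPM (log2 -0.19, SE 0.15, adjusted p = 0.418) at 12 h and 0 h, and PAX3 1517 ± 314 CPM and 1437 ± 314 CPM (log2 0.08, SE 0.24, adjusted p = 0.829). The test called 18.1% of all genes and 0 of 6 cell cycle and replication genes. Of these 6, 3 had an unadjusted p under 0.05 and 0 were called by DESeq2. The replication clamp PCNA (log2 -0.16, SE 0.06, adjusted p = 0.057) and CCND1, cyclin D1 (-0.14, 0.05, 0.0513), lay just outside the threshold. Both passed as falls without some single libraries (adjusted p as low as 0.0306 and 0.0366), while with reference-gene scaling their log2 changes were -0.05 and -0.03 (adjusted p = 0.971 and 0.981). The cell cycle inhibitor CDKN1A was at 0.16 (SE 0.14, adjusted p = 0.458).

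Secreted inhibitors of myogenesis and their antagonists moved unequally. MSTN, which encodes myostatin and carries the name GDF8 in the deposited table (it lies on chromosome 7, 252348 to 257840, plus strand, 3 exons), stood at 324 to 582 CPM (median 432, n = 6) at 12 h, against 1671, 1776, 1495, 1412 and 1665 CPM at 0 h. Every library at 12 h was below every library at 0 h. The log2 change was -1.87 (SE 0.29, edgeR adjusted p = 1.34e-06). The myostatin-binding antagonist follistatin, FST, averaged 5085 ± 350.4 CPM at 12 h and 6343 ± 405 CPM at 0 h (log2 -0.32, adjusted p = 0.00274), but the call was lost with reference-gene scaling (log2 -0.22, adjusted p = 0.555) and without the libraries above the gap (adjusted p = 0.224). GREM1, an antagonist of bone morphogenetic proteins, rose to 2530.2 ± 311 CPM at 12 h, against 1567 ± 319.5 CPM at 0 h (log2 0.69, SE 0.11, adjusted p = 8.83e-07). Of the 12 tested genes of the myostatin, activin, TGF-beta and BMP list these were the 1 rise and 2 falls, and the list's median was -0.04. Over all genes tested 10.8% rose and 7.28% fell.

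The Notch, Wnt and FGF lists are small, and most of their few calls were falls. Over all genes tested 10.8% rose and 7.28% fell. HEY1, a transcriptional repressor switched on by Notch (chromosome 2, 120664931 to 120667575, minus strand, 5 exons), stood at 854 to 1466 CPM (median 1056, n = 6) at 12 h, against 2743, 3019, 2633, 2593 and 2661 CPM at 0 h (log2 -1.33, SE 0.21, edgeR adjusted p = 2.15e-06). The receptor NOTCH1 did not pass (log2 -0.14, SE 0.36, adjusted p = 0.806), and 1 of 3 Notch genes was called. WNT4, a secreted Wnt ligand (chromosome 21, 6313309 to 6325046, plus strand, 5 exons), had few counts, 20 in all 6 libraries at 12 h and 143 in the 5 at 0 h. It stood at 1.3 to 4.97 CPM (median 3.44, n = 6) at 12 h, against 45.2, 45.1, 26.3, 25.2 and 25.2 CPM at 0 h (log2 -3.18, SE 0.52, adjusted p = 3.15e-06). WNT5A rose to 2698 ± 398 CPM at 12 h, against 1975 ± 124 CPM at 0 h (log2 0.45, adjusted p = 0.00206), and the call was lost with technical replicate 1 alone (adjusted p = 0.153). Of 9 Wnt genes these were the 1 rise and 1 fall.

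Among 8 tested genes of FGF, PDGF, EGF and HGF signalling 1 rose and 2 fell, where 18.1% of all genes tested were called. The receptor FGFR3 stood at 299 to 975 CPM (median 517, n = 6) at 12 h, against 1677, 1998, 1648, 1117 and 2059 CPM at 0 h (log2 -1.67, SE 0.26, edgeR adjusted p = 8.83e-07), and the receptor FGFR2 at 1517 to 2417 CPM (median 1822, n = 6), against 3287, 3712, 3241, 2922 and 3042 CPM (log2 -0.80, SE 0.14, adjusted p = 1.32e-05). Both were without overlap. PDGFRB, the platelet-derived growth factor receptor of mesenchymal cells, rose to 1701 ± 233 CPM at 12 h, against 1131 ± 149 CPM at 0 h (log2 0.59, adjusted p = 0.00279), and that call was lost with technical replicate 2 alone (adjusted p = 0.0501). Of 12 insulin-like growth factor and insulin genes 2 rose and 0 fell. IGF2, a growth factor of myoblasts, averaged 1414 ± 277 CPM at 12 h and 770.5 ± 278 CPM at 0 h (log2 0.88, SE 0.27, adjusted p = 0.0158). Its call was lost without 0 h replicate 4 (adjusted p = 0.0908) and with technical replicate 2 alone (0.24). It was also lost with reference-gene scaling (0.0528) and without the libraries above the gap (log2 1.09, adjusted p = 0.0702). IGFBP2, which binds these factors, was at log2 0.44 (adjusted p = 0.0159). That call was lost without 0 h replicate 3 (0.0726) or 4 (0.0896) and with reference-gene scaling (0.0705). It was also lost with technical replicate 2 alone (0.192) and without the libraries above the gap (log2 0.53, adjusted p = 0.116). IGF1 (log2 -0.50, SE 0.27, adjusted p = 0.234) and its receptor IGF1R (-0.07, 0.10, 0.615) did not pass. Among immediate early factors and MAPK feedback genes 2 of 10 rose and 1 fell. The transcription factor EGR3 rose to 1187 ± 261 CPM at 12 h, against 741 ± 94.2 CPM at 0 h (log2 0.68, adjusted p = 0.00124), and RGS4, which dampens G protein signalling, to 104 ± 30.3 CPM, against 42.1 ± 12.7 CPM (log2 1.32, adjusted p = 0.00199). Both calls were lost with technical replicate 1 alone (adjusted p = 0.132 and 0.0659). EGR1 had a small fall (log2 -0.22, adjusted p = 0.0278) that was lost with reference-gene scaling (0.642) and without any 1 of 12 h replicates 2, 4 and 6 or 0 h replicates 3 and 4 (adjusted p up to 0.124), and also with the libraries above the gap left out (0.655).

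**Figure D3:**
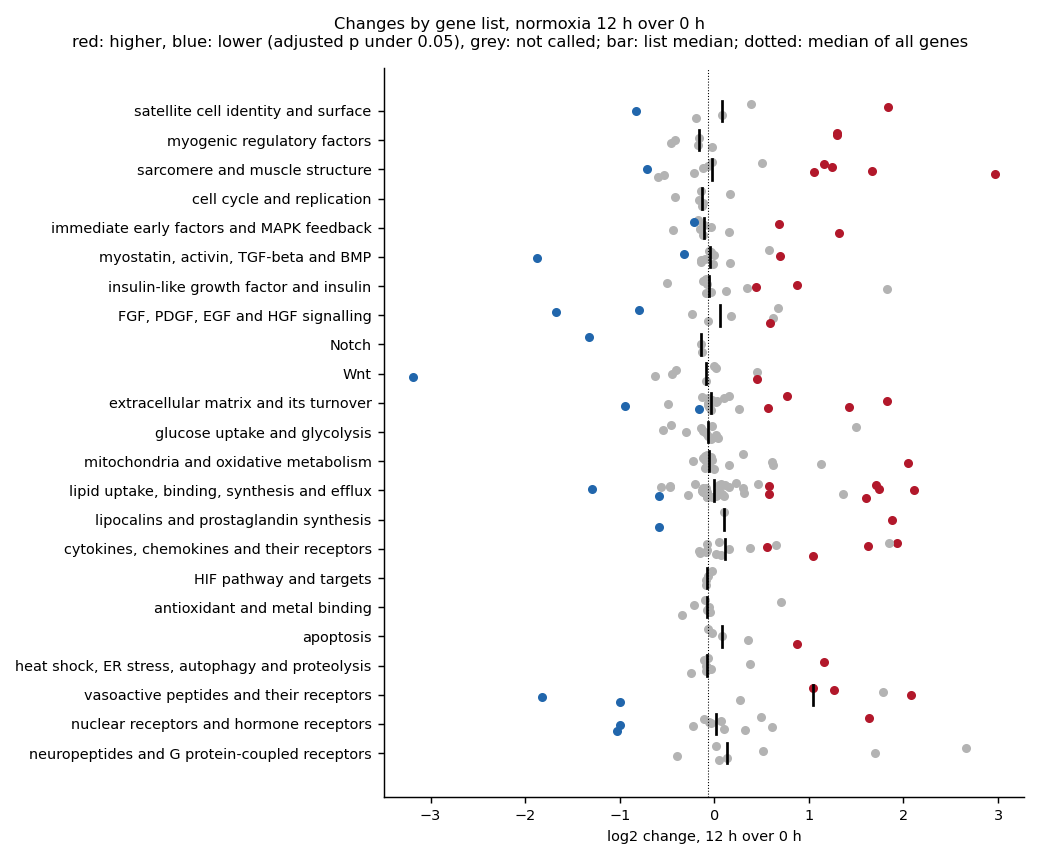
Log2 change of 12 h over 0 h for each tested gene (points), by gene list, with the list median as a black bar and the median of all tested genes as a dotted line. Red and blue points passed the test. Most lists centre near the dotted line at -0.06, and the vasoactive list, with 3 genes higher and 2 lower of 7, has its median at 1.04. Over all tested genes 10.8% were higher and 7.28% lower.

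Of 40 tested genes of lipid uptake, binding, synthesis and efflux 6 rose, 2 fell and 32 did not pass, a share called near the 18.1% of all genes tested. The list's median log2 change was 0.00. FABP2, the intestinal type of fatty acid-binding protein (chromosome 4, 54716739 to 54719703, plus strand, 4 exons), stood at 1276 to 2525 CPM (median 1669.8, n = 6) at 12 h, against 439, 342, 412, 437 and 509.9 CPM at 0 h (log2 2.11, SE 0.14, edgeR adjusted p = 1.88e-17). FABP1, the liver type, stood at 111 to 192 CPM (median 143, n = 6) at 12 h, against 45.2, 58.0, 50.9, 25.2 and 37.4 CPM at 0 h (log2 1.74, SE 0.21, adjusted p = 1.77e-09). APOA1, the main protein of high-density lipoprotein, stood at 1229 to 1357 CPM (median 1278, n = 6) at 12 h, against 498, 554, 296, 265 and 367 CPM at 0 h (log2 1.71, SE 0.12, adjusted p = 1.71e-16). For these 3 genes each library at 12 h was above all 0 h libraries. ELOVL7, a fatty acid elongase, went the other way, at 475 to 1073 CPM (median 744, n = 6) at 12 h, against 1768, 1672, 1871, 1959 and 2195 CPM at 0 h (log2 -1.29, SE 0.16, adjusted p = 4.53e-09). The fatty acid transporter CD36 (0.58, 0.0021) and the monoglyceride lipase MGLL (0.58, 0.00274), given as log2 change and adjusted p and chosen after their values were seen, rose less. Of the 7 adipocyte markers CD36 was the 1 that passed. ADIPOQ (log2 0.05), FABP4 (0.05), PPARG (0.10), LPL (-0.10), FASN (-0.07) and PLIN1 (1.36, SE 0.51, adjusted p = 0.0576) did not, although FABP4 passed with reference-gene scaling (log2 0.16, adjusted p = 0.000689).

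PPARGC1A, the coactivator that promotes mitochondrial biogenesis (chromosome 4, 73981770 to 74100704, plus strand, 13 exons), was the 1 of 19 tested mitochondrial and oxidative genes called. Among the 19, 3 had an unadjusted p under 0.05, and 18.1% of all genes tested were called. PPARGC1A stood at 1259 to 2569 CPM (median 1782, n = 6) at 12 h, against 456, 489.8, 419, 311 and 513 CPM at 0 h (log2 2.05, SE 0.17, edgeR adjusted p = 1.41e-14), without overlap. DIO2, the deiodinase that activates thyroid hormone, stood at 254 to 619 CPM (median 316, n = 6) at 12 h, against 109, 145, 117, 94.2 and 118 CPM at 0 h (log2 1.63, SE 0.27, adjusted p = 4.55e-06). It was the 1 rise in the list of nuclear and hormone receptors, which also holds this enzyme. That list had 12 tested genes, where 10.8% of all genes tested rose and 7.28% fell. The 2 falls there were the progesterone receptor PGR (log2 -1.001, adjusted p = 0.00206) and the retinoid receptor RXRG (-1.03, 0.0125). Both calls were lost with reference-gene scaling (0.0636 and 0.114) and with technical replicate 1 alone (0.0659 and 0.135). Both were also lost with the libraries above the gap left out (0.25 and 0.57), and that of RXRG without 0 h replicate 2 (0.0672). PTGDS, which makes prostaglandin D, stood at 435 to 789 CPM (median 551, n = 6) at 12 h, against 152, 213, 149.6, 99.5 and 180.1 CPM at 0 h (log2 1.88, SE 0.18, adjusted p = 3.66e-12). RBP4A, a lipocalin that carries retinol, averaged 634 ± 191 CPM at 12 h and 948 ± 87.0 CPM at 0 h (log2 -0.58, adjusted p = 0.00555), with the call lost on reference-gene scaling (0.126) and with the libraries above the gap left out (0.651). The RBP4A call was also lost with technical replicate 2 alone (0.686) and with the 12 h and 0 h groups fitted alone (0.0787). Taking 0 h replicate 1 from its technical replicate 2 ended it as well (0.0707).

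In the list of vasoactive peptides and their receptors 3 of 7 tested genes rose and 2 fell, where 10.8% of all genes tested rose and 7.28% fell. AGTR2 and ACE of the angiotensin system were among the rises, and EDN1 and EDNRB of the endothelin system were the falls. AGT of the first system (log2 1.79, SE 1.07, edgeR adjusted p = 0.274) and EDN2 of the second (0.28, 0.35, 0.606) did not pass. AGTR2, an angiotensin receptor, stood at 126 to 394 CPM (median 222, n = 6) at 12 h, against 89.5, 90.2, 15.1, 19.9 and 60.9 CPM at 0 h (log2 2.08, SE 0.49, edgeR adjusted p = 0.00112). ACE, which makes active angiotensin, averaged 496 ± 127 CPM at 12 h and 242 ± 47.4 CPM at 0 h (log2 1.04, adjusted p = 0.00895). Both calls were lost with 1 of the technical replicates alone (adjusted p = 0.0894 and 0.0559 for AGTR2 and ACE). Endothelin, EDN1, stood at 56.9, 45.5, 36.1, 108, 49.1 and 75.8 CPM at 12 h, against 274, 264, 146, 138 and 258 CPM at 0 h (log2 -1.82, SE 0.39, adjusted p = 0.000315). Its receptor EDNRB, named after its value was seen, averaged 389 ± 89.0 CPM and 775 ± 98.3 CPM (log2 -0.997, adjusted p = 0.00124). VWF, a blood-clotting protein made by endothelial cells, stood at 112 to 407 CPM (median 178, n = 6) at 12 h, against 724, 967, 648, 534 and 841 CPM at 0 h (log2 -1.83, SE 0.29, adjusted p = 2.26e-06). The endothelial markers CDH5 (log2 -0.66, adjusted p = 0.319) and ENG (-0.12, 0.838) did not pass. The calls of EDN1 and EDNRB were lost without the libraries above the gap (log2 -1.39 and -0.82, adjusted p = 0.134 and 0.207).

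Of 16 cytokine, chemokine and receptor genes 4 rose and 0 fell, where 10.8% of all genes tested rose and 7.28% fell. IL15, a cytokine known to be made by muscle, stood at 229 to 429 CPM (median 290.3, n = 6) at 12 h, against 121, 126, 72.4, 67.7 and 103 CPM at 0 h (log2 1.63, SE 0.25, edgeR adjusted p = 1.12e-06). The chemokine CCL5 stood at 29.6 to 76.3 CPM (median 36.9, n = 6) at 12 h, against 15.1, 12.9, 16.7, 2.65 and 5.22 CPM at 0 h (log2 1.93, SE 0.49, adjusted p = 0.00229), on 24 to 49 counts a library at 12 h and 2 to 21 at 0 h. Neither gene overlapped between the groups. IL18 rose less (log2 0.55, adjusted p = 0.0034), as did the tumour necrosis factor receptor TNFRSF1B (1.04, 0.0128), whose call was lost without the libraries above the gap (0.299). IL6 averaged 1429 ± 321 CPM at 12 h and 1098 ± 191 CPM at 0 h and did not pass (log2 0.38, adjusted p = 0.0778), whereas DESeq2 called it (0.0421). The death receptor FAS rose to 954 ± 68.3 CPM at 12 h, against 520.0 ± 53.4 CPM at 0 h (log2 0.88, SE 0.10, adjusted p = 7.15e-10), 1 of 5 apoptosis genes called.

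In the extracellular matrix list 4 of 21 genes rose and 2 fell, where 10.8% of all genes tested rose and 7.28% fell. DPT, dermatopontin, stood at 1201 to 1638 CPM (median 1321, n = 6) at 12 h, against 457, 489.8, 302, 291 and 391 CPM at 0 h (log2 1.82, SE 0.17, edgeR adjusted p = 2.23e-12), without overlap. MMP9, a matrix-degrading enzyme, averaged 695 ± 131 CPM at 12 h and 1338 ± 258 CPM at 0 h (log2 -0.95, adjusted p = 0.00895), and its call was lost with reference-gene scaling (0.112) and without the libraries above the gap (0.276). SPON1 rose (log2 0.56, adjusted p = 4.12e-05, named after its value was seen), while SPON2 averaged 19.5 ± 4.76 CPM at 12 h and 16.7 ± 6.35 CPM at 0 h and did not pass (0.26, 0.484). The collagens COL1A1 (log2 -0.13) and COL3A1 (0.10) and fibronectin, FN1 (-0.07), did not pass. COCH (log2 0.77, adjusted p = 0.046) was near the threshold and lost its call when any 1 of 8 libraries was left out (12 h replicates 1, 2, 4 and 6 and 0 h replicates 1, 3, 4 and 5, adjusted p up to 0.178). SPARC, with 77 counts in all at 12 h and 21 at 0 h, lost it without 12 h replicate 6 or 0 h replicate 3 or 5 (adjusted p up to 0.0885). Both calls were also lost with the libraries above the gap left out (adjusted p = 0.158 and 0.224 for COCH and SPARC).

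Lists of metabolism and stress gave few calls or 0, but the lists are small, and 18.1% of all genes tested were called. The test called 0 of 13 genes of glucose uptake and glycolysis, with 2 at an unadjusted p under 0.05 and 1 called by DESeq2. It called 0 of 4 HIF pathway genes (0 at an unadjusted p under 0.05, 0 by DESeq2) and 0 of 7 antioxidant and metal-binding genes (1 and 0). HIF1A was at log2 -0.09 (SE 0.07, edgeR adjusted p = 0.439) and VEGFA at -0.09 (SE 0.06, adjusted p = 0.278). For neuropeptides and G protein-coupled receptors 0 of 7 were called, with 2 at an unadjusted p under 0.05 and 2 called by DESeq2. Of the 9 heat shock, autophagy and proteolysis genes 1 was called, CAPN3. The 8 reference genes gave 0 calls (0 at an unadjusted p under 0.05, 0 by DESeq2), with a median of -0.11.

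Some of the highest log2 changes came with wide spread at 12 h. THRSP, a regulator of lipid synthesis and one of the 6 genes of the score, stood at 712 to 1019 CPM in the 4 libraries at 12 h above the gap and at 147 and 226 CPM in the 2 below it, against 360.0, 164, 161, 195 and 183 CPM at 0 h, where the first value is that of the library above the gap. The mitochondrial carrier SLC25A34 stood at 92.2 to 2447 CPM (median 934, n = 6) at 12 h, against 539, 119, 171, 96.9 and 145 CPM at 0 h, and the homeobox gene HOXC9 at 27.4 to 482 CPM (median 317, n = 6), against 107, 54.8, 40.6, 14.6 and 29.6 CPM. For THRSP, which helped to set the gap, agreement with it and loss of the call below were largely fixed in advance. In all 3 genes the 4 libraries above the gap were the highest at 12 h and the 2 others lay among or near the 0 h libraries. The edgeR calls (log2 1.60, 2.26 and 2.49, adjusted p = 0.0189, 0.0325 and 0.0426) were lost with the libraries above the gap left out, with log2 changes of 0.08, 0.25 and 0.25 (adjusted p = 0.897, 0.753 and 0.831). They were also lost without single libraries: THRSP without 12 h replicate 2 or 0 h replicate 3 (adjusted p up to 0.0572), SLC25A34 without 12 h replicate 2 or 3 or 0 h replicates 2 to 5 (up to 0.117), and HOXC9 without 12 h replicates 1, 2, 3 or 6 or 0 h replicates 2 to 5 (up to 0.124). PCYT2, an enzyme of phospholipid synthesis, was at 0 counts in 4 of 6 libraries at 12 h and at 124.5 and 203 CPM in replicates 1 and 6, against 1239, 361, 216, 896 and 398 CPM at 0 h. Its call (log2 -3.47, adjusted p = 0.0313) was lost without 12 h replicate 2, 3, 4 or 5 or 0 h replicate 1 or 4 (adjusted p up to 0.0705). DESeq2 (adjusted p = 0.0565) and reference-gene scaling (0.052) ended it as well. So did technical replicate 1 alone (0.141) and the 12 h and 0 h groups fitted alone (0.057). CHRNB2, a nicotinic receptor subunit, had 75 counts in all at 12 h and 7 at 0 h (log2 2.93, adjusted p = 0.0158). Its call was lost without 0 h replicate 5 (adjusted p = 0.0588), with DESeq2 (0.0538) and with the libraries above the gap left out (log2 1.65, adjusted p = 0.548).

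**Figure D4:**
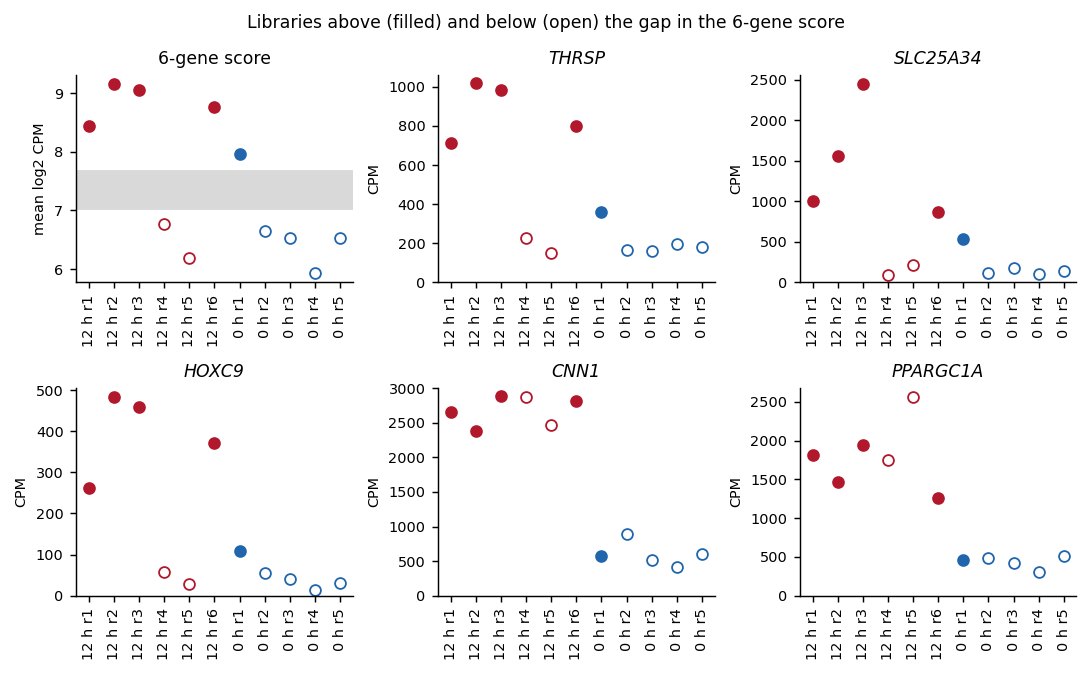
The 6-gene score (mean log2 CPM, with the gap shaded) and the CPM of 5 genes in each library, with the 6 libraries at 12 h (red) left of the 5 at 0 h (blue) and filled points for libraries above the gap. SLC25A34, HOXC9 and THRSP, which is itself part of the score, follow the score among the 12 h libraries. CNN1 and PPARGC1A are higher in all 6 libraries at 12 h than in any at 0 h, on both sides of the gap.

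How much of the change belonged to the first 12 h was asked by subtracting the log2 change from 12 to 24 h from that from 0 to 12 h. These 2 steps share the 12 h libraries, so the error of that group enters both steps. It passed in 86 of 453 genes (19.0%), 60 positive and 26 negative by edgeR, and with reference-gene scaling, which moved its median over all genes to 0.28 from -0.04, in 66 and 3. With the libraries above the gap left out it passed in 21. MYH1D averaged 1297 ± 295 CPM at 0 h, 4085 ± 134 CPM at 12 h, 4804 ± 240.1 CPM at 24 h and 4845 ± 237 CPM at 48 h, with a difference of 1.44 (SE 0.12, adjusted p = 1.92e-13). CNN1 averaged 599 ± 176 CPM at 0 h, 2682 ± 218 CPM at 12 h and 2237 ± 475 CPM at 24 h, with a difference of 2.44 (SE 0.23, adjusted p = 7.14e-12). Most of the distance between the 0 h and 24 h means of MYH1D was thus covered by 12 h. The CNN1 mean at 12 h was above that at 24 h. The means of PPARGC1A (2071 ± 268 CPM at 24 h, difference 1.84 (SE 0.26, adjusted p = 3.39e-07)) and FABP2 (2098 ± 284 CPM, 1.93 (SE 0.22, adjusted p = 1.41e-09)) showed the same shape as MYH1D.

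A second set of genes stood higher at 12 h than at the harvests on either side of it. ACE averaged 242 ± 47.4 CPM at 0 h, 496 ± 127 CPM at 12 h, 199 ± 60.4 CPM at 24 h and 220.4 ± 45.0 CPM at 48 h, and its first step exceeded the next by 2.35 (SE 0.48, adjusted p = 0.000403) in edgeR's test. CCL5 averaged 10.5 ± 6.22 CPM at 0 h, 41.6 ± 17.3 CPM at 12 h, 8.44 ± 6.41 CPM at 24 h and 8.34 ± 4.98 CPM at 48 h (difference 3.98 (SE 0.77, adjusted p = 0.000166)). MEF2A averaged 197 ± 52.8 CPM, 486 ± 143 CPM, 259 ± 66.2 CPM and 222 ± 64.2 CPM at these harvests (difference 2.20 (SE 0.46, adjusted p = 0.000551)), and DIO2 117 ± 18.5 CPM, 361 ± 135 CPM, 185 ± 91.2 CPM and 75.7 ± 12.0 CPM (difference 2.60 (SE 0.43, adjusted p = 1.21e-05)). MEF2C averaged 374 ± 127 CPM at 24 h and 422 ± 88.6 CPM at 48 h, and its first step also exceeded the next, by 1.70 (SE 0.46, adjusted p = 0.00767). That call was lost with technical replicate 2 alone (adjusted p = 0.127) and with the libraries above the gap left out (difference 1.82, adjusted p = 0.1615). The difference between the steps did not pass for FABP1, 0.58 (SE 0.33, adjusted p = 0.18), HEY1, -0.10 (SE 0.36, adjusted p = 0.858), or MSTN, -1.01 (SE 0.50, adjusted p = 0.129). SPON2 had its rise after 12 h, with 104 ± 32.2 CPM at 24 h and a difference of -2.16 (SE 0.41, adjusted p = 0.000142).

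**Figure D5:**
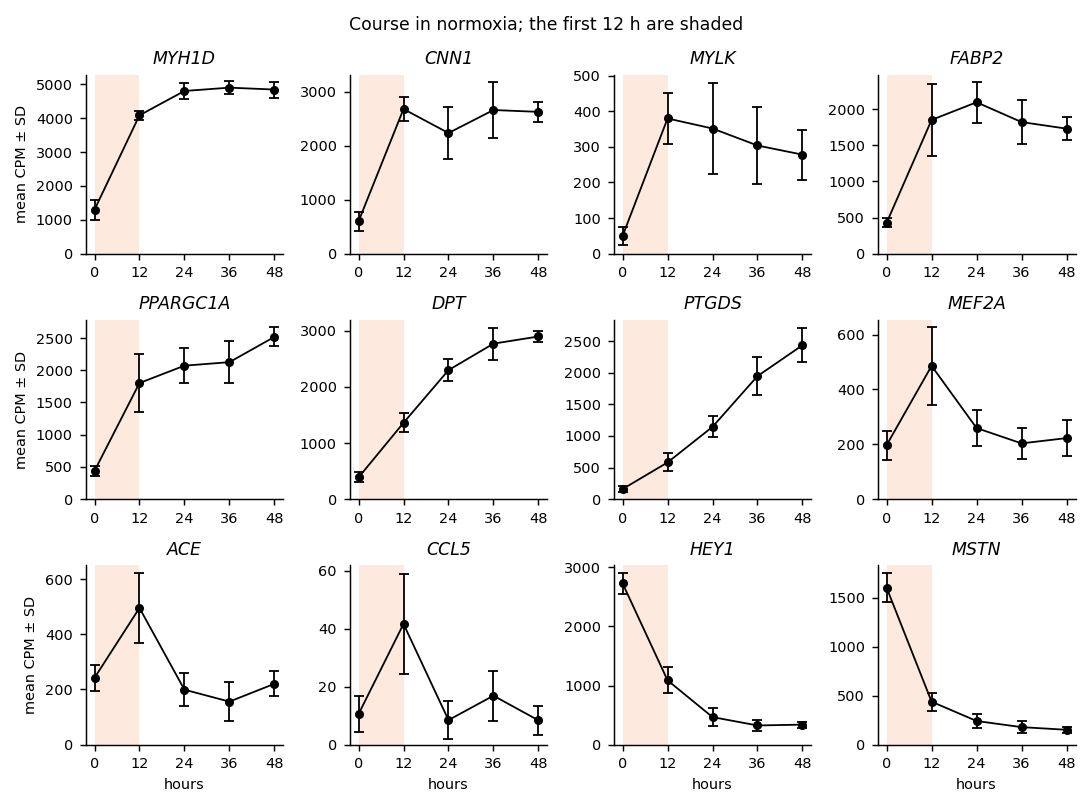
Mean CPM ± SD (points and bars) of 12 genes against hours in normoxia, from 0 h (n = 5) to 12, 24, 36 and 48 h (n = 6 each), with the first 12 h shaded. MYH1D and CNN1 are near their later levels at 12 h, DPT and PTGDS go on to higher means, ACE, CCL5 and MEF2A have their highest mean at 12 h, and HEY1 and MSTN have lower means at each later harvest than at 0 h.

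The cells at 12 h in normoxia were also set against cells kept for the same 12 h in the same differentiation medium at 1% O2 (hypoxia, n = 6), which keeps hours and medium equal. This comparison shares the 12 h normoxia libraries with the one above, and 4 of the 6 normoxia libraries lay above the gap, against 1 of the 6 hypoxia libraries. It passed in 81 of 453 genes (17.9%), 47 higher and 34 lower in normoxia, in 34 and 9 with reference-gene scaling, and in 24 genes with the libraries above the gap left out. MYH1D, CNN1 and FABP2 had no called difference: MYH1D averaged 4085 ± 134 CPM in normoxia and 3632 ± 317 CPM in hypoxia (log2 0.17, SE 0.07, adjusted p = 0.0774 by edgeR), CNN1 2682 ± 218 CPM and 2255 ± 253 CPM (log2 0.25, SE 0.13, adjusted p = 0.164), and FABP2 1853 ± 501 CPM and 1791 ± 173 CPM (log2 0.05, SE 0.13, adjusted p = 0.771). MYLK was higher in normoxia, at 379.6 ± 71.6 CPM against 119 ± 32.4 CPM (log2 1.67, SE 0.31, adjusted p = 6.2e-05), as was IL15, at 302 ± 71.4 CPM against 132 ± 31.4 CPM (log2 1.19, SE 0.23, adjusted p = 0.000168). PPARGC1A stood at 1802 ± 451 CPM in normoxia and 1013 ± 194 CPM in hypoxia (log2 0.83, SE 0.15, adjusted p = 5.63e-05). The 0 h means of these 3 genes, 49.4 ± 24.4 CPM, 97.8 ± 26.8 CPM and 438 ± 79.6 CPM, were below both. AGTR2 (231 ± 96.4 CPM in normoxia, 66.2 ± 30.8 CPM in hypoxia) and TNFRSF1B (69.5 ± 11.8 CPM, 16.9 ± 6.27 CPM) differed by log2 1.78 and 2.06, and ACE, at 496 ± 127 CPM and 614 ± 107 CPM, had no called difference (log2 -0.31, SE 0.28, adjusted p = 0.407).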

How the data were processed

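The authors deposited 1 table of raw read counts, per the file headers, for 590 transcripts in 106 columns, 2 technical replicates of each of 53 biological libraries. Columns that matched no sample numbered 0. Coordinates are the table's own, on galGal6 (the build in the submitters' processing notes). For the aligner, counter, strand setting and molecular identifiers, the sources used here give nothing. Blank cells (1160 in 21 columns, 0 of them at 12 h or 0 h in normoxia) were read as 0. Technical replicate 1 of 0 h replicate 1 held no 0 and had 1 to 3 counts for 39 transcripts at 0 in all other 0 h columns. An alternative left it out.

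The 2 transcripts of 21 genes and the 2 technical replicates were summed. Names are the deposited ones; 525 of 569 matched a current and 2 an older symbol in RefSeq genes of GRCg7b, and 42 matched none. Counts were scaled by TMM and tested in R 4.3.3 with edgeR 4.0.16 (filterByExpr, quasi-likelihood F test, all 9 groups in 1 fit, 44 residual degrees of freedom, common biological coefficient of variation 26.0%), with Benjamini-Hochberg adjustment over 453 genes at 0.05. The SE of a log2 change was obtained by dividing it by √F. The procedure was tested on simulated data. Alternatives were DESeq2 1.42.0, library totals, 8 reference genes (GAPDH, ACTB, HPRT1, TBP, YWHAZ, EEF2, PPIA and GUSB), no filter, each technical replicate alone, the 2 or 3 groups alone, a replicate block, each library of the groups compared left out (those at 24 h and in hypoxia added after seeing the data), and the libraries above the gap left out.

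The 75 named genes comprise, among genes called, the 15 with the highest and the 15 with the lowest log2 change, up to 4 called genes of largest change in each list, and a fixed set of myogenic and signalling genes. The members, lists and rule were chosen with earlier results of these data known. Some items are not reported here.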

Additional observations from a re-analysis of the deposited data

Results flagged for a closer look

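Among 148 groups tested (the named genes at 12 h and at 0 h), 12 held a library far from the others, and chance flags about 1 in 20 groups. At 12 h replicate 4, the shallowest library of the group, was the highest for CCL5 (76.3 CPM, the others 29.6 to 37.7), for ENSGALG00000042388 (703 CPM, the others 281 to 411), for FGFR2 (2417 CPM, the others 1517 to 1851) and for SPON2 (28.6 CPM, the others 16.1 to 20.3), and the lowest for MYOG (3960.1 CPM, the others 4646 to 4822). Replicate 5 was the highest for DIO2 (619 CPM, the others 254 to 388), PAX7 (9731 CPM, the others 7020.1 to 7930) and RGS4 (163 CPM, the others 74.6 to 102). Replicates 4 and 5 are the 2 libraries at 12 h below the gap in the 6-gene score. MYH1D was highest in replicate 6 at 12 h (4354 CPM, the others 3995 to 4069) and in replicate 2 at 0 h (1801 CPM, the others 1072 to 1272). At 0 h replicate 1, the library above the gap, was the highest for SLC25A34 (539 CPM, the others 96.9 to 171) and THRSP (360.0 CPM, the others 161 to 195).

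For 21 of 58 named genes called at 12 h against 0 h the change from 0 to 12 h differed between normoxia and hypoxia, by edgeR's quasi-likelihood test of 12 h normoxia against 12 h hypoxia (both start from the same 0 h libraries) at an adjusted p under 0.05. Over all genes tested it called 81 of 453 (17.9%). The 58 genes were called with the same 12 h normoxia libraries, so a larger share among them is partly built in. The difference, normoxia minus hypoxia on the log2 scale, was positive for CCL5 (3.36), MSTN (2.34), TNFRSF1B (2.06), AGTR2 (1.78), MYLK (1.67), IGF2 (1.23), IL15 (1.19), ITGA7 (0.87), PPARGC1A (0.83), MEF2C (0.76), MEF2A (0.75), DIO2 (0.71), HEY1 (0.64), DPT (0.60) and WNT5A (0.45). It was negative for COCH (-2.09), FGFR3 (-1.06), RBP4A (-0.92), EGR1 (-0.35), NCAM1 (-0.29) and FST (-0.28). With the libraries above the gap left out (4 of 6 in normoxia and 1 of 6 in hypoxia), 10 of the 21 calls were lost, those of DIO2, EGR1, FGFR3, FST, HEY1, ITGA7, MEF2A, MEF2C, NCAM1 and RBP4A (adjusted p = 0.0843 to 0.309). That fit holds fewer libraries. In it the log2 differences of DIO2 (1.05), HEY1 (0.70), MEF2A (0.96) and MEF2C (0.83) were larger than with all libraries. Those of EGR1 (-0.22), FGFR3 (-0.66), FST (-0.24), ITGA7 (0.77), NCAM1 (-0.28) and RBP4A (-0.52) were smaller in size. Reference-gene scaling ended 6 of the 10 calls (EGR1, FST, HEY1, MEF2A, MEF2C and NCAM1, adjusted p = 0.071 to 0.616). Leaving out 1 library at 12 h, in normoxia or hypoxia, ended 5 (DIO2, HEY1, MEF2A, MEF2C and NCAM1, adjusted p up to 0.146, 0.0851, 0.152, 0.0892 and 0.0603). Counting every alternative, 11 calls were lost in at least 1, with WNT5A added by technical replicate 1 alone (adjusted p = 0.179).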

How the results depend on the processing

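The comparison of 12 h with 0 h gave 82 calls, and 55 to 102 under the alternatives other than leaving out the libraries above the gap, which gave 52. When 1 library was left out it gave 70 to 89. Of the 59 named genes called, 28 kept the call in all 21 alternatives and 14 lost it in at least 1 that left out a single library. The labels do not say whether replicate numbers pair the samples, and 5 pairs are too few to decide it. Same-numbered 12 h and 0 h libraries had correlations of 0.36, -0.28, 0.07, -0.10 and 0.34, and 2 of 5 were closest to their own number. The fit with the replicate block gave 102 calls, all 82 among them, ended no call of a named gene, and called PCNA and CCND1 as falls (adjusted p = 0.016 and 0.031). The difference between the first and the next 12 h gave 86 calls, 43 with technical replicate 2 alone, 21 without the libraries above the gap and 57 to 105 when 1 library at 0, 12 or 24 h was left out, the lowest without 12 h replicate 4. In 5 of the 86 genes that difference had the other sign without the libraries above the gap, and in 8 with reference-gene scaling. THRSP was among the 5 (log2 -0.35, adjusted p = 0.75 in edgeR's test), and the cause was not tested. Normoxia against hypoxia at 12 h gave 81 calls, 43 with reference-gene scaling, 47 with technical replicate 1 alone, 131 with these groups fitted alone, 24 without the libraries above the gap and 52 to 99 when 1 library at 12 h was left out, in normoxia or hypoxia, the lowest without hypoxia replicate 3. Leaving out the 24 h and hypoxia libraries was chosen after seeing the data. Reference-gene scaling raised the share of rises between 12 h and 0 h to 76.7% from 59.8% of the calls. Depth limits genes such as WNT4, CHRNB2 and SPARC, whose counts are few.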

Other observations

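Of 203 tested genes in none of the gene lists 13 rose and 16 fell at 12 h by edgeR's quasi-likelihood test. Their median log2 change was -0.08, and of all genes tested 10.8% rose and 7.28% fell. The genes named here were chosen after their values were seen. CAV3, the caveolin of muscle, averaged 3614 ± 120.0 CPM at 12 h and 2808 ± 185 CPM at 0 h (log2 0.37, SE 0.06, adjusted p = 7.98e-07), a small change whose groups did not overlap. The mitochondrial carrier SLC25A30 averaged 2055 ± 454 CPM and 1333 ± 176 CPM (log2 0.63, adjusted p = 3.56e-05). TCF21, a transcription factor of fibroblast-lineage cells, averaged 175 ± 31.8 CPM at 12 h and 84.4 ± 20.9 CPM at 0 h (log2 1.06, adjusted p = 0.000417) and 46.6 ± 9.63 CPM at 48 h. The transcription factor SOX13 averaged 43.8 ± 21.7 CPM at 12 h and 132 ± 32.2 CPM at 0 h (log2 -1.61, adjusted p = 0.000245), and the glutamate transporter SLC1A3 17.0 ± 3.84 CPM and 46.7 ± 13.3 CPM (log2 -1.48, adjusted p = 0.000483). The calls of TCF21, SOX13 and SLC1A3 were lost when the libraries above the gap were left out (adjusted p = 0.158, 0.195 and 0.116).

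Some falls were small with narrow spread. The ribosomal protein gene RPL14 averaged 6212 ± 419 CPM at 12 h and 7227 ± 239 CPM at 0 h (log2 -0.22, adjusted p = 0.00293), and the fatty acid dehydrogenase ACADS 3739.9 ± 279 CPM and 4312 ± 149 CPM (log2 -0.20, adjusted p = 0.0375). With reference-gene scaling their log2 changes were -0.11 and -0.10 (adjusted p = 0.413 and 0.309), and edgeR called neither.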
